A study of Mus musculus with 6 samples.

Results

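The circadian clock genes examined here were the 10 transcripts Clock, Arntl, Per1, Per2, Per3, Cry1, Cry2, Nr1d1, Nr1d2 and Dbp, chosen by symbol, and all 10 were found among the 22899 genes of each table. They were read in RNA from splenic CD4+ T cells of C57BL/6 mice, isolated by flow cytometry, with 3 libraries from lean mice on a normal diet and 3 from obese mice on a high-fat diet of 60 kcal% fat. Feeding generally began at 6 to 8 weeks of age and lasted up to 4 months. The labels give neither sex nor the hour at which mice were killed, and give no mouse for any library, so the p-values reflect scatter among libraries that may be technical. Values are FPKM, fragments mapped to a gene scaled to transcript length and to the library's mapped fragments.

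The mammalian clock is a feedback loop of transcription that runs in nearly every cell type, lymphocytes included. CLOCK and BMAL1 (the protein of Arntl) bind E-box sequences and switch on the Per, Cry, Nr1d and Dbp genes. PER and CRY proteins then return to block CLOCK and BMAL1, while the REV-ERB receptors encoded by Nr1d1 and Nr1d2 compete with ROR receptors to silence Arntl and, in part, Cry1. Transcripts of Arntl therefore peak at nearly the opposite time of day from those of Nr1d1 and Dbp, so a single time point samples a single phase.

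Promoter sequence is shown for Nr1d1 and Arntl, from opposite arms of the loop, whose ratio differed most from library to library among the 4 ratios computed, for Cry1, which held both E-box forms, and for Per3, the member with D-box matches. Sequences come from the RefSeq promoter table (GRCm38.p6), which held 13 windows for 9 of the 10 members, all but Per2. Each is printed 5′ to 3′, up to the first base of any annotated exon or of the RefSeq gene span, with motif matches in capitals. The Arntl window precedes a start that lies inside the gene span, and it held none of the motifs searched.
Nr1d1, chr11:98775378-98775627, minus strand: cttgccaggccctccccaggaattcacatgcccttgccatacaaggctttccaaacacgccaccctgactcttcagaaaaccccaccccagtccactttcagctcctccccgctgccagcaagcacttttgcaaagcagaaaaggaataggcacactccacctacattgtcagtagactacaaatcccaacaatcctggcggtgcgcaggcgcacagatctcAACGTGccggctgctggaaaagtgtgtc
Arntl, chr7:113207215-113207464, plus strand: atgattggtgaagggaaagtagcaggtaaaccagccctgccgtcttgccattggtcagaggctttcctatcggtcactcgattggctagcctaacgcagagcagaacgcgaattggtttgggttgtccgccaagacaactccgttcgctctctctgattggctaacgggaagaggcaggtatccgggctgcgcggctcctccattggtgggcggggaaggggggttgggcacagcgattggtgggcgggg
Cry1, chr10:85185065-85185304, minus strand: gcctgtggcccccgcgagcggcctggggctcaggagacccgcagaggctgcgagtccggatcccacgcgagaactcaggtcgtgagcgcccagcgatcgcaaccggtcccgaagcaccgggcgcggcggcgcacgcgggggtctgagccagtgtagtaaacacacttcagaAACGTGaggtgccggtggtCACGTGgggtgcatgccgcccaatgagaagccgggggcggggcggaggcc
Per3, chr4:151044708-151044915, minus strand: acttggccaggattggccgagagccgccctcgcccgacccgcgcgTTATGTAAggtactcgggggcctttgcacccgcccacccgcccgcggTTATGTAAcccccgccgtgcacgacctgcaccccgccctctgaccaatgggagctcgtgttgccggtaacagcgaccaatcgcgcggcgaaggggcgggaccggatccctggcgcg

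In the 250 bases before each listed start, both strands were searched for 7 motifs, and no match in the printed sequences overlapped another. The E-box, CACGTG, was found in a window of Cry1 and one of Per1, and in 6.02% of all 32851 windows in the table. A variant of it that CLOCK and BMAL1 can also bind, CACGTT, was found in windows of Cry1, Cry2 and Nr1d1 and in 3.85% of all windows. In Nr1d1 this match begins 28 bases before the start. The D-box form TTATGTAA, of the kind that DBP and its relatives bind, was found at 2 places in the window of Per3, and in 0.819% of all windows. The other D-box form, TTACGTAA, was found in no member window and in 0.113% of all windows. The ROR core TAGGTCA, which REV-ERB receptors share, was also found in no member window, and in 2.23% of all windows. Its other form, TGGGTCA, was found in no member window and in 3.24% of all windows. The cAMP response element TGACGTCA was found in no member window and in 1.55% of all windows. A match describes these letters and no more, and a window without a match says nothing of the factor.

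Summed FPKM lay between 616104 and 656303 in the lean libraries and between 595106 and 630744 in the obese ones. Low values of genes with 1 annotated transcript clustered at whole multiples of a step that corresponds to between 17350000 and 21550000 mapped fragments per library, depending on the length correction, so the libraries were of similar depth. Lean 3 and obese 3 stood apart: over tested genes, the SD of a library's log2 departure from the other 2 of its group was 0.256 and 0.254 in them, against 0.182 to 0.211 in the other 4, so results are also given without both. From the estimate of depth, Per3 rested on about 38.5 to 87.0 fragments per library and Clock on about 143 to 207, against 1111 to 1677 for Per1. T cell markers were present throughout, with Cd4 between 279.3 and 362.6 FPKM and Cd3e between 346.2 and 454.9 FPKM. Markers of other cells were present in every library, and those of several cell types moved with diet. All 10 macrophage and monocyte markers rose, with a summed level of 744.5 to 834.8 FPKM in the 3 lean and 1739 to 1902 FPKM in the 3 obese libraries. All 10 erythroid markers rose (summed level 175.6 to 477.0 against 4376 to 29110 FPKM), 2 of 5 plasma cell markers rose (466.3 to 547.2 against 753.0 to 1363 FPKM), 6 of 8 neutrophil markers fell (531.5 to 760.2 against 139.7 to 398.0 FPKM) and 3 of 5 NK cell markers fell (87.0 to 108.3 against 65.5 to 73.9 FPKM). None of the 6 B cell, 2 CD8 T cell and 4 tested dendritic cell markers passed the test, and no marker of these lists was at 0 in any library. Their part in the clock values below was not tested, and in bulk RNA fewer cells of a type and less RNA per cell cannot be told apart.

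No clock transcript differed between lean and obese libraries beyond the test's threshold. Values were compared as log2(FPKM + 1) with limma over the 10788 genes that reached 1 FPKM in at least 3 of the 6 libraries, with Benjamini-Hochberg adjustment over all of them. Of the 9 members tested, 0 were called at an adjusted p under 0.05, where 6.28% of all tested genes were called (5.77% higher and 0.519% lower in obese libraries). At an unadjusted p under 0.05, 1 member passed (Nr1d2), against 25.9% of all tested genes. With library weights estimated from the data (limma arrayWeights), Per1 and Nr1d2 passed as higher in obese libraries, by 0.47 and 0.36 on the log2 scale, where 28.9% of all tested genes were called in either direction. Median-of-ratios scaling and quantile normalization also gave 0 members, against 5.63% and 4.02% of all tested genes, as did leaving out lean 1 (3.02%) and a fit with the replicate number as a block (9.41%). Over all tested genes, 622 were higher and 56 lower. Scaling by median of ratios made this 434 and 173, and quantile normalization made it 322 and 112. Leaving out lean 1 gave 326 genes and leaving out lean 2 gave 318. The median log2 difference of the 9 members was 0.07, against 0.10 for all tested genes. Of the members 7 lay above 0 and 2 below, where 7634 of the 10788 tested genes lay above 0 and 3154 below. Of those 7 members, 4 turned below 0 under median-of-ratios scaling and 5 under quantile normalization. These scalings moved the median of all tested genes by −0.13 and −0.14.

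**Figure D1:**
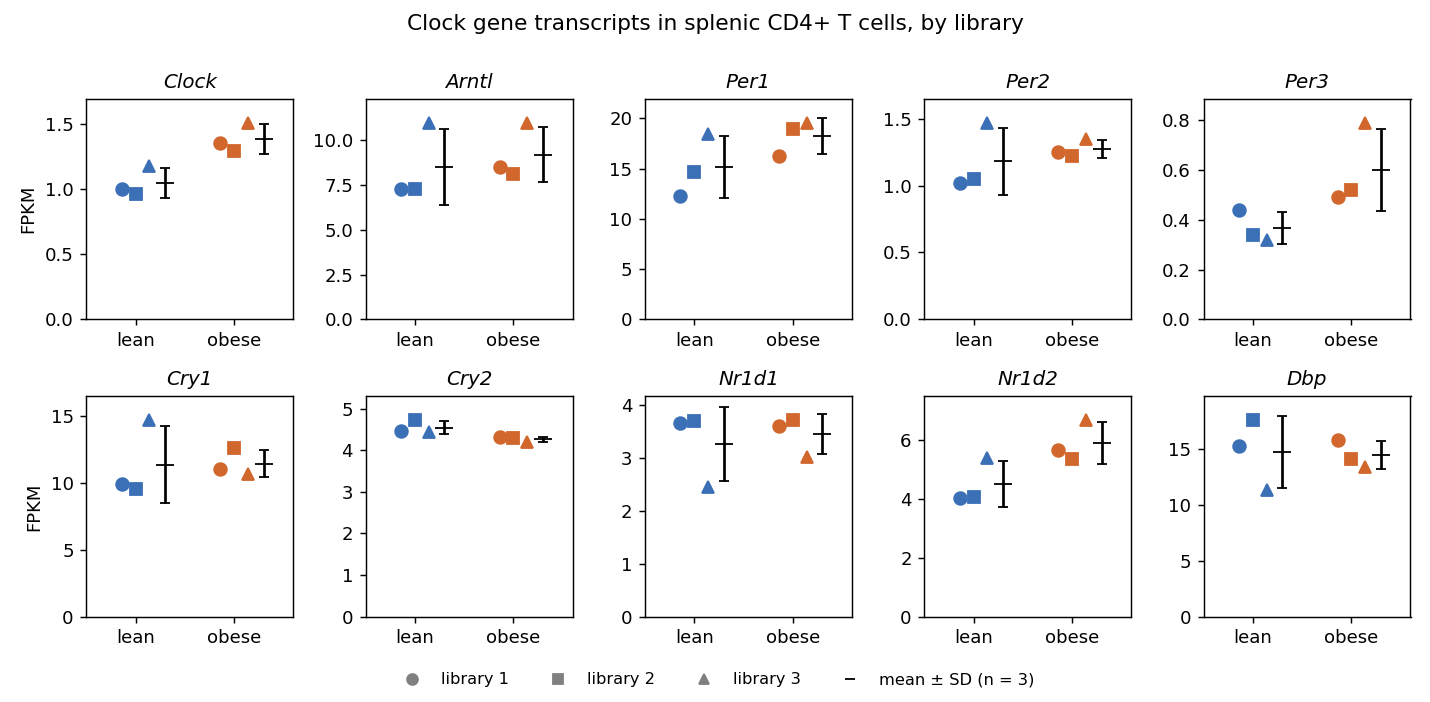
FPKM of the 10 clock transcripts (vertical axes, each from 0) in the 3 lean and 3 obese libraries; symbols mark the library number and black bars the mean ± SD of 3 libraries. Groups overlap for 7 transcripts and are apart for Clock, Per3 and Cry2, while lean 3 and obese 3 are the highest of their groups for Arntl and the lowest for Nr1d1.

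The activators of the loop were led by Arntl. Arntl (gene 11865, chromosome 7, 113178471 to 113314126, GRCm38), which encodes BMAL1, stood at 7.29, 7.27 and 10.99 FPKM in lean 1, 2 and 3 and at 8.51, 8.13 and 10.97 FPKM in obese 1, 2 and 3. The groups overlapped, because lean 3 reached the level of the highest obese library. The difference was 0.11 ± 0.17 on the log2 scale (SE), with a 95% interval of −0.27 to 0.50 (limma, BH-adjusted p = 0.704). Clock (gene 12753, chromosome 5, 76209868 to 76305603), the DNA-binding partner of BMAL1, was listed at 1.0, 0.96 and 1.18 FPKM in the 3 lean and at 1.35, 1.29 and 1.51 FPKM in the 3 obese libraries. Every obese library lay above every lean one, as was so in 1 direction or the other for 31.5% of all tested genes. Its difference of 0.22 ± 0.11 (SE), with a 95% interval of −0.03 to 0.47, did not pass (limma, BH-adjusted p = 0.241), and under quantile normalization it was −0.00439. Per kilobase, Arntl stood at 8.52 ± 2.14 FPKM and Clock at 1.05 ± 0.117 FPKM in lean libraries (SD, n = 3 each).

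Of the period genes, whose proteins are the rhythmic part of the repressor complex, Per1 was the most abundant by far. Per1 (gene 18626, chromosome 11, 69095108 to 69109965), which is also induced directly by glucocorticoid and cAMP signals, stood at 12.31, 14.68 and 18.43 FPKM in the 3 lean and at 16.23, 18.91 and 19.57 FPKM in the 3 obese libraries. Lean 3 fell inside the obese range, and the difference of 0.27 ± 0.14 (SE; 95% interval −0.06 to 0.59) did not pass (limma, BH-adjusted p = 0.267). Per2 (gene 18627, chromosome 1, 91415977 to 91459351), its close relative in the repressor complex, stood at 1.02, 1.05 and 1.47 FPKM in the 3 lean and 1.25, 1.22 and 1.35 FPKM in the 3 obese libraries. Its highest value was that of lean 3. The difference was 0.07 ± 0.12 (SE; 95% interval −0.21 to 0.34; limma, BH-adjusted p = 0.760). Per3 (gene 18628, chromosome 4, 150997018 to 151044707), the period gene regarded as dispensable for the core rhythm, was listed at 0.44, 0.34 and 0.32 FPKM in the 3 lean and 0.49, 0.52 and 0.79 FPKM in the 3 obese libraries. These groups did not overlap, and neither did those of 31.5% of all tested genes. Every Per3 value was under the 1 FPKM of the filter, so Per3 was not tested with the other 9. Without the filter its difference was 0.22 ± 0.08 on the log2(FPKM + 1) scale (SE; limma, BH-adjusted p = 0.199), a scale that understates the change of so low a gene. The ratio of its group means was 1.64.

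The cryptochromes, the partners that give the repressor complex its strength, were both expressed. Cry1 (gene 12952, chromosome 10, 85131700 to 85185054) stood at 9.91, 9.53 and 14.75 FPKM in the 3 lean and 11.03, 12.65 and 10.71 FPKM in the 3 obese libraries. Lean 3 was the highest of all 6 libraries, and the other 2 lean libraries were the lowest. The difference was 0.03 ± 0.16 (SE; 95% interval −0.33 to 0.39; limma, BH-adjusted p = 0.924). Cry2 (gene 12953, chromosome 2, 92403646 to 92434085) was the steadiest member, at 4.47, 4.73 and 4.43 FPKM in the 3 lean and 4.31, 4.28 and 4.20 FPKM in the 3 obese libraries. All 3 obese values lay below all 3 lean values, where 31.5% of all tested genes had groups apart in 1 direction or the other. The difference was only −0.07 ± 0.10 (SE; 95% interval −0.29 to 0.14; limma, BH-adjusted p = 0.649).

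The REV-ERB receptors, which silence Arntl, included the member with the smallest p. Nr1d2 (gene 353187, chromosome 14, 18204056 to 18239106), which encodes REV-ERB beta, stood at 4.02, 4.05 and 5.39 FPKM in the 3 lean and 5.64, 5.33 and 6.67 FPKM in the 3 obese libraries. Only lean 3 reached into the obese range. The difference was 0.33 ± 0.13 (SE; 95% interval 0.03 to 0.63), 2363rd in order of p among the 10788 genes, which was not past the threshold (BH-adjusted p = 0.165 with limma, and 0.0147 to 0.636 over the alternatives). Nr1d1 (gene 217166, chromosome 11, 98767932 to 98775377), which encodes REV-ERB alpha, stood at 3.65, 3.69 and 2.45 FPKM in the 3 lean and 3.60, 3.72 and 3.02 FPKM in the 3 obese libraries. Apart from lean 3 and obese 3 the 4 values lay between 3.60 and 3.72 FPKM. The difference was 0.07 ± 0.15 (SE; 95% interval −0.26 to 0.40; limma, BH-adjusted p = 0.789). Whether the receptors differed from each other in their response to diet was not tested.

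Dbp (gene 13170, chromosome 7, 45705100 to 45710203), a transcription factor driven straight by CLOCK and BMAL1 and a common readout of clock phase, stood at 15.26, 17.59 and 11.28 FPKM in the 3 lean and 15.80, 14.08 and 13.36 FPKM in the 3 obese libraries. The obese values lay within the lean range. The difference was −0.01 ± 0.15 (SE; 95% interval −0.35 to 0.33; limma, BH-adjusted p = 0.974). Strandedness of the counting is not given in the sources used here, and some exonic bases are shared with genes on the opposite strand, 539 of 2993 for Dbp (with Sphk2), 263 of 3077 for Nr1d1 (with Thra), 295 of 6320 for Cry2 (with D930015M05Rik) and 33 of 7523 for Arntl (with Gm45355), so reads from such partners cannot be told apart there. Sphk2 stood at 26.26, 31.13 and 33.85 FPKM in the 3 lean and 26.90, 29.77 and 24.87 FPKM in the 3 obese libraries, highest in lean 3, where Dbp was lowest. Thra stood at 10.72 to 11.57 FPKM in 5 libraries and at 8.14 FPKM in obese 3.

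By level, the lean order was Per1 (15.1 ± 3.09 FPKM), Dbp (14.7 ± 3.19), Cry1 (11.4 ± 2.91), Arntl (8.52 ± 2.14), Cry2 (4.54 ± 0.163), Nr1d2 (4.49 ± 0.782), Nr1d1 (3.26 ± 0.705), Per2 (1.18 ± 0.252), Clock (1.05 ± 0.117) and Per3 (0.367 ± 0.0643), as mean ± SD of 3 libraries. Neighbours in this order had overlapping ranges from Per1 down to Arntl, between Cry2 and Nr1d2 and between Per2 and Clock, and were apart elsewhere. In obese libraries the order began with Per1 (18.2 ± 1.77 FPKM), Dbp (14.4 ± 1.25), Cry1 (11.5 ± 1.04) and Arntl (9.20 ± 1.54), of which only the ranges of Cry1 and Arntl overlapped, and ended with Nr1d1 (3.45 ± 0.374) above Clock and Per2, and Per3 (0.60 ± 0.165) last. There Nr1d2 (5.88 ± 0.701 FPKM) stood above Cry2 (4.26 ± 0.0569) and Clock (1.38 ± 0.114) above Per2 (1.27 ± 0.0681), the latter pair with overlapping ranges (SD, n = 3 each).

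**Figure D2:**
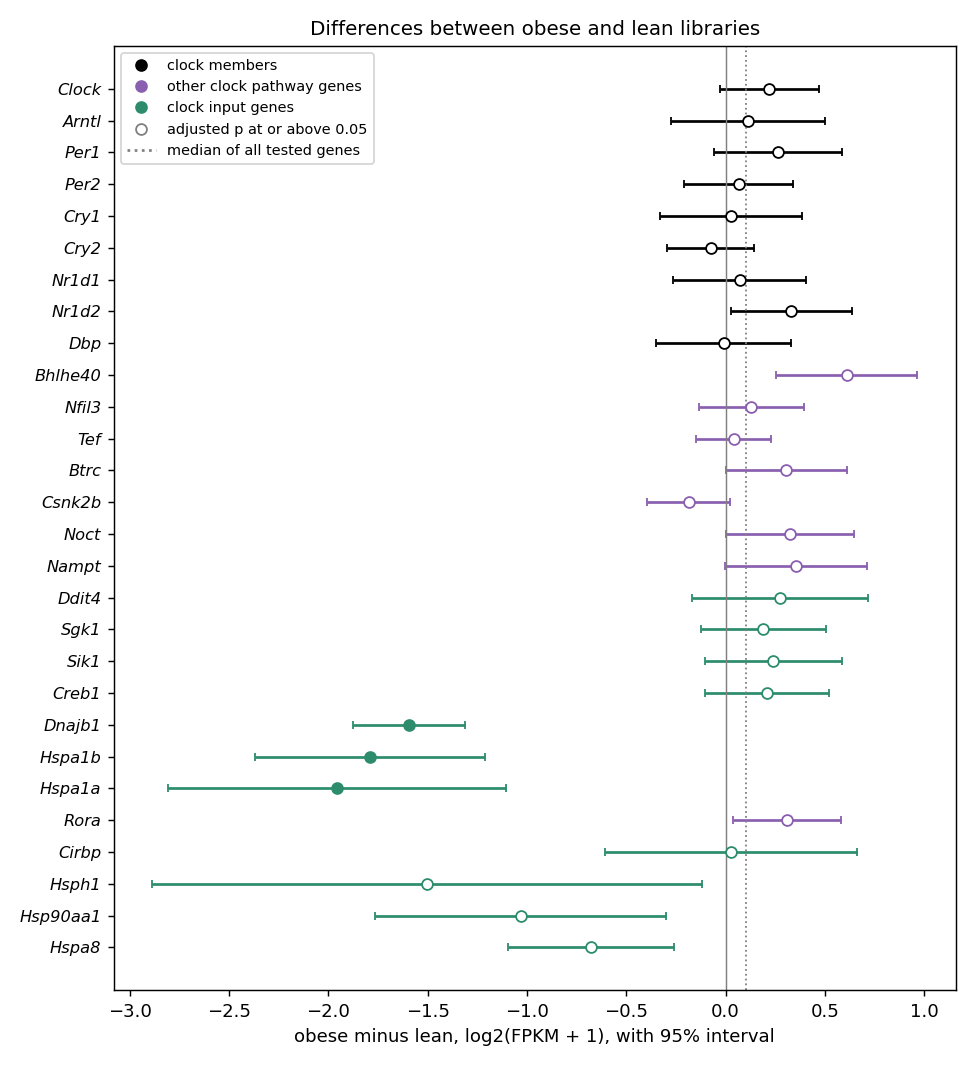
Obese minus lean difference on the log2(FPKM + 1) scale (horizontal axis) with its 95% interval from limma for the 9 tested clock members and for named pathway and input genes; filled points passed at a BH-adjusted p under 0.05. No member is filled, and the filled points are Dnajb1, Hspa1b and Hspa1a, all to the left of 0.

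None of the other genes of the clock pathway passed the test. Of 32 listed, 25 were tested, and 0 were called with limma, against the 6.28% of all tested genes; 5 of the 25 had an unadjusted p under 0.05, as did 25.9% of all tested genes. Their median log2 difference was 0.15, against 0.10 for all tested genes. Of the 25, 21 lay above 0 and 4 below, where 7634 of all 10788 tested genes lay above 0 and 3154 below. With library weights 5 of the 25 were called, all higher (Csnk2a1, Fbxw11, Nampt, Ncor1 and Noct), where 28.9% of all tested genes were called in either direction.

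Among the further loop factors, Bhlhe40 (DEC1), a repressor that competes for E-boxes and is also induced on T cell activation, came closest. It stood at 18.80, 12.46 and 14.97 FPKM in the 3 lean and at 21.03, 22.48 and 28.23 FPKM in the 3 obese libraries. The groups were apart, as were those of 31.5% of all tested genes. The difference was 0.61 ± 0.16 (SE; limma, BH-adjusted p = 0.0559). Among the alternatives it passed only without lean 1, its highest lean library (0.75, limma BH-adjusted p = 0.0409). The limma BH-adjusted p was 0.159 without lean 2, 0.149 without obese 3 and 0.133 without lean 3 and obese 3. With library weights the difference was 0.34 (limma arrayWeights, BH-adjusted p = 0.0577). Macrophages also express Bhlhe40, and all 10 of their markers rose; their part in this difference was not tested. Rora, a receptor that activates Arntl and was named after its values were seen, had a difference of 0.31 ± 0.12 (SE; limma, BH-adjusted p = 0.150), from 0.85 to 1.20 FPKM in lean to 1.45 to 1.72 FPKM in the 3 obese libraries. Arntl2, Rorb, Npas2 and Bhlhe41 did not reach the filter: Rorb was at most 0.01 FPKM, Arntl2 at most 0.05 FPKM and Npas2, a stand-in for CLOCK, 0.11 to 0.41 FPKM.

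Of the relatives of Dbp, Tef was level at 11.65 to 12.47 FPKM over all 6 libraries (log2 difference 0.04 ± 0.08, SE) and Nfil3, which opposes them at D-boxes, stood at 10.4 ± 1.13 FPKM in the 3 lean and 11.5 ± 1.34 FPKM in the 3 obese libraries (SD, n = 3 each). Hlf stayed under the filter, at 0.28 to 0.60 FPKM. Among the kinases and ubiquitin ligases that set the life of PER and CRY proteins, Btrc, a ligase subunit for PER, differed by 0.31 ± 0.13 (SE; limma, BH-adjusted p = 0.192) without passing, and Csnk2b, the regulatory subunit of casein kinase 2, had −0.19 ± 0.09 (SE; limma, BH-adjusted p = 0.235). Among cofactors and outputs, Noct (Nocturnin), a rhythmic enzyme, had 0.32 ± 0.14 and Nampt, the rhythmic enzyme of NAD salvage, 0.36 ± 0.16 (SE; limma, BH-adjusted p = 0.192 and 0.196).

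Among genes of the signals that reach the clock from outside, the 3 that passed the test were heat shock genes. Of 24 listed input genes 22 were tested, 3 fell and none rose, where 0.519% of all tested genes fell and 5.77% rose, and their median log2 difference was 0.07. Over the 9 temperature genes among them the median was −1.03, with 6 below 0 and 3 above, where 3154 of all 10788 tested genes lay below 0. Hspa8 (−0.68 ± 0.18) and Hsp90aa1 (−1.03 ± 0.32), named after their values were seen, were lower without passing (SE; limma, BH-adjusted p = 0.0646 and 0.0929). Dnajb1, a co-chaperone, fell from 205.72, 248.98 and 230.30 FPKM in lean to 65.87, 70.13 and 90.22 FPKM in the 3 obese libraries, a difference of −1.59 ± 0.12 (SE; limma, BH-adjusted p = 4.02e-04). Hspa1b and Hspa1a, near-identical HSP70 genes whose reads can be split wrongly between them, had differences of −1.79 and −1.96 (limma, BH-adjusted p = 0.00486 and 0.0195), so both fell. For Hspa1a the limma BH-adjusted p was 0.0703 with lean 1 left out, 0.0793 with lean 2 left out, 0.0524 with obese 1 left out and 0.0741 with no filter on low values. Hsf1, the factor that drives heat shock genes and a known input to Per2, stood at 32.02 to 35.92 FPKM over all 6 libraries.

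The glucocorticoid list holds the receptor gene Nr3c1 beside genes it induces. None of its 6 tested genes and none of the 7 cAMP and serum response genes was called, where 6.28% of all tested genes were. None of these 13 had an unadjusted p under 0.05 with limma, against 25.9% of all tested genes. Ddit4 and Sgk1, both induced by glucocorticoids, had differences of 0.27 ± 0.19 and 0.19 ± 0.14 (SE; limma, BH-adjusted p = 0.396 and 0.407). Ddit4 stood at 104.30, 121.92 and 147.14 FPKM in the 3 lean and 167.43, 182.48 and 108.56 FPKM in the 3 obese libraries, so obese 3 alone lay in the lean range. Without lean 3 and obese 3, which leaves 2 libraries a group, both passed as higher, by 0.63 and 0.43 on the log2 scale (limma, BH-adjusted p = 0.0183 and 0.0306), as did Tsc22d3 of the same list, where 7.19% of all tested genes were called. Sik1 and Creb1, of the cAMP pathway that reaches Per1, had differences of 0.24 ± 0.15 and 0.21 ± 0.14 (SE; limma, BH-adjusted p = 0.340 and 0.361). With library weights Ddit4, Sgk1, Tsc22d3 and Sik1 all passed as higher, where 28.9% of all tested genes were called in either direction.

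In lean 3, several clock transcripts departed further from the other libraries of their group than most tested genes did. Each library was set against the mean of the other 2 of its group on the log2(FPKM + 1) scale, a comparison chosen after the values were seen and given with no test. In lean 3, Arntl lay 0.53 and Cry1 0.56 higher than in lean 1 and 2, at percentiles 98.4 and 98.5 of all tested genes, while Nr1d1 lay at −0.44 and Dbp at −0.50, at percentiles 3.03 and 1.74. Per1 (0.43, percentile 95.4), Nr1d2 (0.34, percentile 90.3) and Per2 (0.28, percentile 85.1) lay on the side of Arntl. In obese 3, Arntl (0.36, percentile 89.3), Nr1d1 (−0.21, percentile 7.92) and Dbp (−0.15, percentile 14.1) had the same signs as in lean 3. Nr1d2 (0.24, percentile 78.3), Per1 (0.15, percentile 66.2) and Per2 (0.07, percentile 53.4) did too. Per2 thus lay near the middle of all tested genes, whose median departure in obese 3 was 0.05. Cry1 did not have the same sign (−0.13, percentile 16.7). Ciart, a further loop factor added here after its values were seen, also changed sign. It lay at −0.25 in lean 3 (percentile 13.1) and at 0.61 in obese 3 (percentile 97.1). At the estimated depth Ciart rested on only about 18.5 to 37.1 fragments per library, fewer than any member, so counting error weighs on both values. Cry2 (−0.04 and −0.03) and Tef (−0.05 and −0.02) hardly departed in either library.

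**Figure D3:**
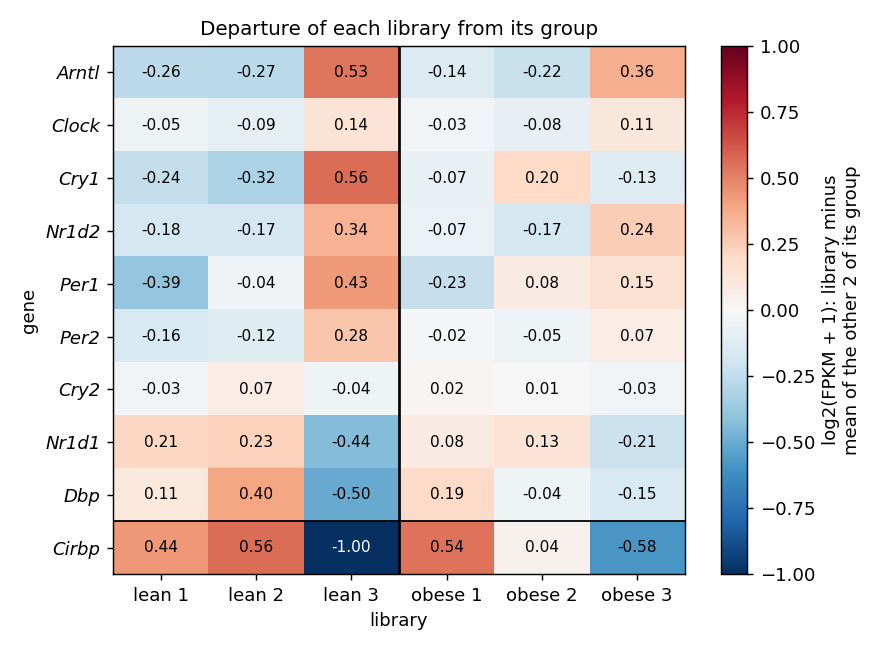
Each cell gives a library's log2(FPKM + 1) minus the mean of the other 2 libraries of its diet group, for 9 clock transcripts and, below the line, Cirbp; red is higher and blue lower. Lean 3 and obese 3 are red for Arntl and Nr1d2 and blue for Nr1d1, Dbp and Cirbp.

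The ratio of Arntl to Nr1d1, which come from opposite arms of the loop, was 2.0, 1.97 and 4.49 in lean and 2.36, 2.19 and 3.63 in obese libraries. Lean 3 and obese 3 were thus above the other 4 libraries, and the group means of 2.82 ± 1.44 and 2.73 ± 0.789 (SD, n = 3 each) differed by less than either spread. The ratio of Nr1d2 to Nr1d1 was 2.20 in lean 3 and 2.21 in obese 3, against 1.10 in both other lean libraries and 1.43 to 1.57 in the other obese ones. The ratio of Cry1 to Cry2 was highest in lean 3 (3.33) and 2.01 to 2.96 elsewhere. That of Per2 to Per1 stayed between 0.0645 and 0.0829.

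**Figure D4:**
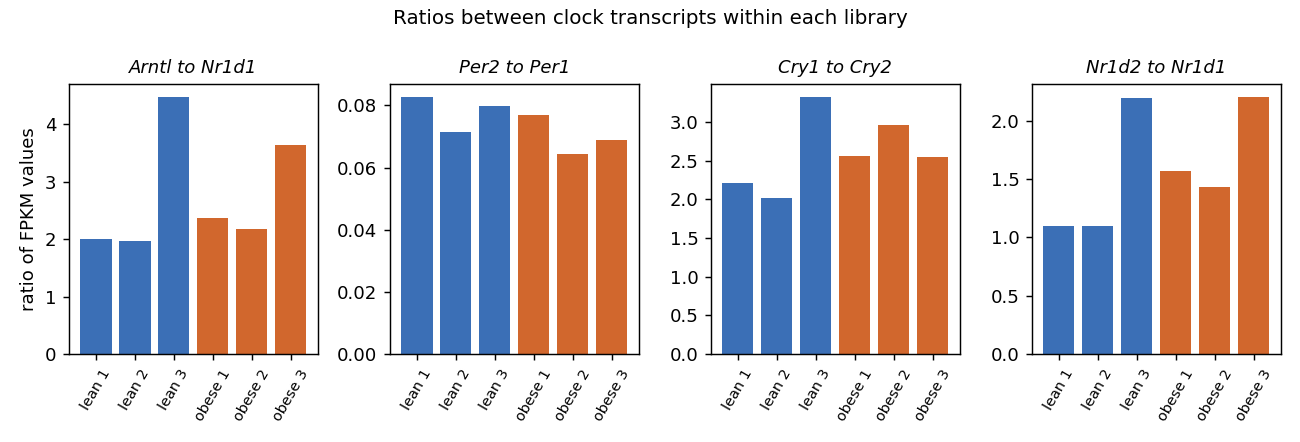
Ratios of FPKM values between pairs of clock transcripts in each library (bars, from 0; lean in blue, obese in orange). For Arntl to Nr1d1 the bars of lean 3 (4.49) and obese 3 (3.63) stand above the other 4, which lie between 1.97 and 2.36.

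Other transcripts moved with these libraries, and their part in the clock values was not tested. Cirbp, a cold-inducible RNA-binding protein with a daily rhythm, was lowest in lean 3 (25.69 FPKM) and obese 3 (32.04 FPKM), against 42.96 to 54.38 FPKM in the other 4. Hsph1, a heat shock chaperone, was at 210.60 FPKM in lean 3 against 31.87 and 46.01 in the other lean libraries, and at 35.19 FPKM in obese 3 against 15.14 and 23.66 in the other obese ones. Hsp90aa1 lay 0.94 and 0.97 higher in lean 3 and obese 3 than in the other libraries of their groups. Hspa8, another heat shock gene, was at 3157.29 FPKM in lean 3 against 1964.88 and 2059 in the other lean libraries. In obese 3 it was at 1667.76 FPKM, against 1282.12 and 1458.37 in the other obese ones. Hspa1b and Hspa1a did not follow in lean 3. Hspa1b was lowest of the lean libraries there, at 250.74 FPKM against 380.06 and 366.55, and Hspa1a was too, at 104.96 FPKM against 189.54 and 199.38. In obese 3 both were the highest of the obese libraries, Hspa1b at 140.96 FPKM and Hspa1a at 74.44 FPKM. Cirbp, Hsph1, Hsp90aa1 and Hspa8 were named after their values were seen, and the account of Hspa1a and Hspa1b by library was added then too. Long transcripts also lay higher in both libraries: in lean 3 the median departure was −0.08 for the shortest of 5 equal classes of transcripts (up to 1017 bases) and 0.16 for the longest class (from 3602 bases), and in obese 3 it was −0.01 and 0.11. The median coding-transcript length was 2731 bases for Arntl, 2721 for Nr1d1 and 1252 for Dbp. Per1 (4537 bases), Per2 (5833) and Clock (7478) fell in the longest class. They departed by 0.43, 0.28 and 0.14 in lean 3 and by 0.15, 0.07 and 0.11 in obese 3. The part of length in the departures of these members was not tested.

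With lean 3 and obese 3 both left out, 0 of the 9 members were called, against 7.19% of all tested genes. Nr1d2 (0.36 ± 0.09, BH-adjusted p = 0.0690), Per1 (0.36 ± 0.12, 0.103) and Cry1 (0.26 ± 0.10, 0.136) had the smallest limma adjusted p (SE), Dbp had −0.13 ± 0.10 and Nr1d1 −0.00320 ± 0.0974.

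The genes whose profile over the 6 libraries was nearest to that of Nr1d2, the member with the smallest p, were Wdr26, Mycbp2 and Klhl24. Likeness was the root mean square difference of log2(FPKM + 1) values after each gene was centred on its own mean, over 8151 genes whose larger group mean was 5 FPKM or more. It was 0.0260 for Wdr26, 0.0294 for Mycbp2 and 0.0330 for Klhl24. Wdr26 stood at 22.66, 23.55 and 29.56 FPKM in the 3 lean and 30.83, 28.07 and 35.04 FPKM in the 3 obese libraries, so that lean 3 was again the lean library nearest the obese ones. None of the 3 passed the test (log2 differences 0.30, 0.36 and 0.34; limma, BH-adjusted p = 0.161, 0.114 and 0.185), though Mycbp2 did without lean 3 (0.48; limma, BH-adjusted p = 0.0482) and without lean 3 and obese 3 (0.40; BH-adjusted p = 0.0450). With library weights all 3 passed (limma arrayWeights, BH-adjusted p = 0.0139, 0.00732 and 0.0158), where 28.9% of all tested genes were called in either direction. They were chosen for likeness to Nr1d2, which also passed with these weights, so their results add nothing separate to that of Nr1d2.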

How the data were processed

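RNA of splenic CD4+ T cells was read by HiSeq RNA sequencing, per the labels' protocols, in 3 libraries per diet group. The authors deposited FPKM values of 22899 genes per library. The tools, per the submitters' processing notes, were Bowtie and RSEM (versions not named) on GRCm38, also written mm10. For annotation, filtering and strand setting the entry is: not given in the sources used here. No counts were used. Depth was estimated from whole-read steps in low FPKM values of genes with 1 transcript of 400 to 2000 bases in GENCODE M21, after subtracting 0, 50 or 100 bases from the length; fragments per member use 50 bases for the depth and the median coding-transcript length, so they are approximate, and FPKM could not be turned back into counts.

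Libraries were grouped by the lean or obese state in their labels. Values were taken as log2(FPKM + 1), and limma 3.58.1 (R 4.3.3) was run on the genes that reached 1 FPKM in 3 or more libraries (2-sided, intensity trend, group as sole term, BH adjustment over 10788 genes). The fit was tested on simulated data. Members and lists were chosen with earlier results of these data known. Named genes were all members, called genes of each list or otherwise the 2 with the smallest p, and the 3 nearest profiles of the member with the smallest p. One gene under this rule is not reported here. Gene positions are those of RefSeq GRCm38.p6. Alternatives were other pseudocounts, filters, scalings, variance models and library weights, the replicate block and leaving out libraries; leaving out lean 3 and obese 3 together was added after the data were seen.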

Additional observations from a re-analysis of the deposited data

How the results depend on the processing

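The count of 0 clock members was the same in every alternative run except library weights, which gave 2 (limma arrayWeights; 3116 genes called in all, with lean 1 weighted 4.19 and lean 3 0.282). Genes called numbered 368 without a filter on low values and 434 after quantile normalization, and 318 to 698 when 1 library was left out. Other pathway genes called numbered 1 after quantile normalization, 5 with library weights and 0 to 1 with 1 library left out. Input genes called numbered 5 after median-of-ratios scaling (0 higher, 5 lower; 5.63% of all tested genes called), 9 with library weights (4 higher, 5 lower; 28.9%) and 8 without lean 3 and obese 3 (3 higher, 5 lower; 7.19%). Median-of-ratios and quantile scaling moved the median of all tested genes by −0.13 and −0.14 on the log2 scale and turned the sign of Nr1d1 (−0.0449 and −0.18), Per2 (−0.0168 and −0.15), Arntl (−0.0235 and −0.0744), Cry1 (−0.11 and −0.13), Nfil3 (−0.00983 and −0.0307), Tef (−0.10 and −0.11) and Cirbp (−0.12 and −0.0208), and quantile scaling that of Clock (−0.00439). Dbp was 0.0503 after TPM rescaling. With library weights Nfil3 was −0.0207 and Cirbp −0.14, and without lean 3 and obese 3 Nr1d1 was −0.00320, Nfil3 −0.0247 and Cirbp −0.11. With 1 library left out, log2 differences ran from −0.0742 to 0.15 for Nr1d1, −0.00764 to 0.29 for Arntl, −0.0761 to 0.21 for Cry1, −0.18 to 0.12 for Dbp and −0.30 to 0.22 for Cirbp. None of these values passed the test, and the cause of the changes was not tested.

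The replicate numbers of the labels are not shown to pair the samples: deviations from the group means over tested genes correlated at 0.03, 0.06 and 0.19 for replicates 1, 2 and 3, and not every library correlated best with its own number. With the replicate number as a block, 1015 genes, 0 members, 0 other pathway genes and 6 input genes (all lower) were called, against 9.41% of all tested genes, and Mycbp2 passed (0.36; BH-adjusted p = 0.0449). Among the members, at the estimated depth, counting error weighs most on Per3 (about 38.5 to 87.0 fragments), then on Per2 (118 to 172), Nr1d1 (134 to 200.3) and Clock (143 to 207).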
